A study of Mus musculus with 8 samples.

Results

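Aminoacyl-tRNA synthetases are the enzymes that attach each amino acid to its transfer RNA. Here they comprised every gene whose symbol follows the synthetase pattern of a 1-letter amino acid code before "ars", together with Eprs and Ears2, among array probe sets annotated with a single gene symbol. The pattern found 26 genes on 48 probe sets, of 12393 genes measured, and each gene was represented by its brightest probe set. Symbols ending in 2 marked 8 mitochondrial enzymes, and the other 18 genes were called cytosolic. The cytosolic enzymes for aspartate and methionine and several mitochondrial ones were not analysed here.

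Cells make protein in the cytosol and, separately, inside mitochondria, and most amino acids therefore have a cytosolic synthetase and a nuclear-encoded mitochondrial one. Several cytosolic synthetases are held together in a multisynthetase complex, and 2 structural classes, I and II, differ in the fold of the catalytic site. Many cytosolic synthetase genes are known targets of ATF4, the transcription factor made when cells lack amino acids or meet endoplasmic reticulum (ER) stress. XBP1, made in its active form (sXBP1) by splicing of its messenger RNA during ER stress, is best known for raising genes of protein folding and secretion.

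The 8 samples were cultures of F442A preadipocytes turned into adipocytes, although the cell line field of the labels reads 3T3L1, with Swiss as the strain background. At day 6 to 8 of differentiation they received adenovirus carrying either mouse sXBP1 or green fluorescent protein (GFP), and RNA was taken 4 to 6 days later. There were 4 sXBP1 and 4 GFP samples, each on 1 Affymetrix array, and all had been infected, so an uninfected state was not compared. The labels do not tie replicates to separate cultures, and the days are ranges given alike for both groups.

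Median signal per array was 135.0 to 153.9 in GFP and 117.3 to 139.6 in sXBP1 samples. The brightest Xbp1 probe set changed by 0.07 ± 0.04 (SE) on the log2 scale (limma adjusted p = 0.271). Whether its probes lie inside the viral insert was not examined here, and the probe set is therefore no check of the labels. Over all genes 12.9% were called higher and 14.4% lower in sXBP1 samples. All 8 measured adipocyte markers were called present on every array, and 6 of them were lower and 0 higher in sXBP1 samples (median -0.51). Their summed signals were 62164 to 67898 on GFP and 50547 to 60612 on sXBP1 arrays. Of 8 fibroblast and preadipocyte markers, also present on every array, 5 were lower and 0 higher (median -0.40), with summed signals of 46653 to 53516 on GFP and 42743 to 44059 on sXBP1 arrays. The summed signal of 8 macrophage and leukocyte markers ranged from 766 to 890 on GFP arrays and from 2102 to 4224 on sXBP1 arrays, with 4 of the 8 higher, namely Cd14, Cd68, Lyz2 and Csf1r. Of the defining markers, Csf1r and Adgre1 were called present on every array, with Csf1r at 0.49 (adjusted p = 0.0239) and Adgre1 at -0.12 (adjusted p = 0.667), and Ptprc and Itgam on none. As a sign of RNA quality, the ratio of the 3' to the 5' Gapdh control signal averaged 0.816 ± 0.005 over GFP arrays and 0.783 ± 0.013 over sXBP1 arrays (SD, n = 4 each; two-sided exact permutation p = 0.0286). The same ratio for actin averaged 1.42 ± 0.019 over GFP arrays and 1.38 ± 0.047 over sXBP1 arrays (SD, two-sided exact permutation p = 0.143). The part of these marker and RNA measures in the synthetase results was not tested.

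Of the 18 cytosolic synthetases, 11 rose in sXBP1 samples, 0 fell and 7 did not pass the threshold (limma, Benjamini-Hochberg adjusted p under 0.05 over 22626 probe sets). Over all 12393 genes 27.3% were called, 12.9% higher and 14.4% lower. These shares include genes near background. With a filter on present calls 43.7% of probe sets passed in either direction, and 11 cytosolic genes were called higher. The median log2 change of the cytosolic enzymes was 0.27, against -0.01 for all genes. Among the 8 mitochondrial enzymes 1 rose, 2 fell and 5 did not pass, with a median of -0.08. With values as deposited that median was -0.23 and 0 rose, and after median centring 0 fell; without the variance trend 0 rose and 0 fell. All 26 genes were called present on all 8 arrays, so none was near background. The changes are differences of log2(signal + 16) after quantile normalisation, sXBP1 minus GFP.

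**Figure D1:**
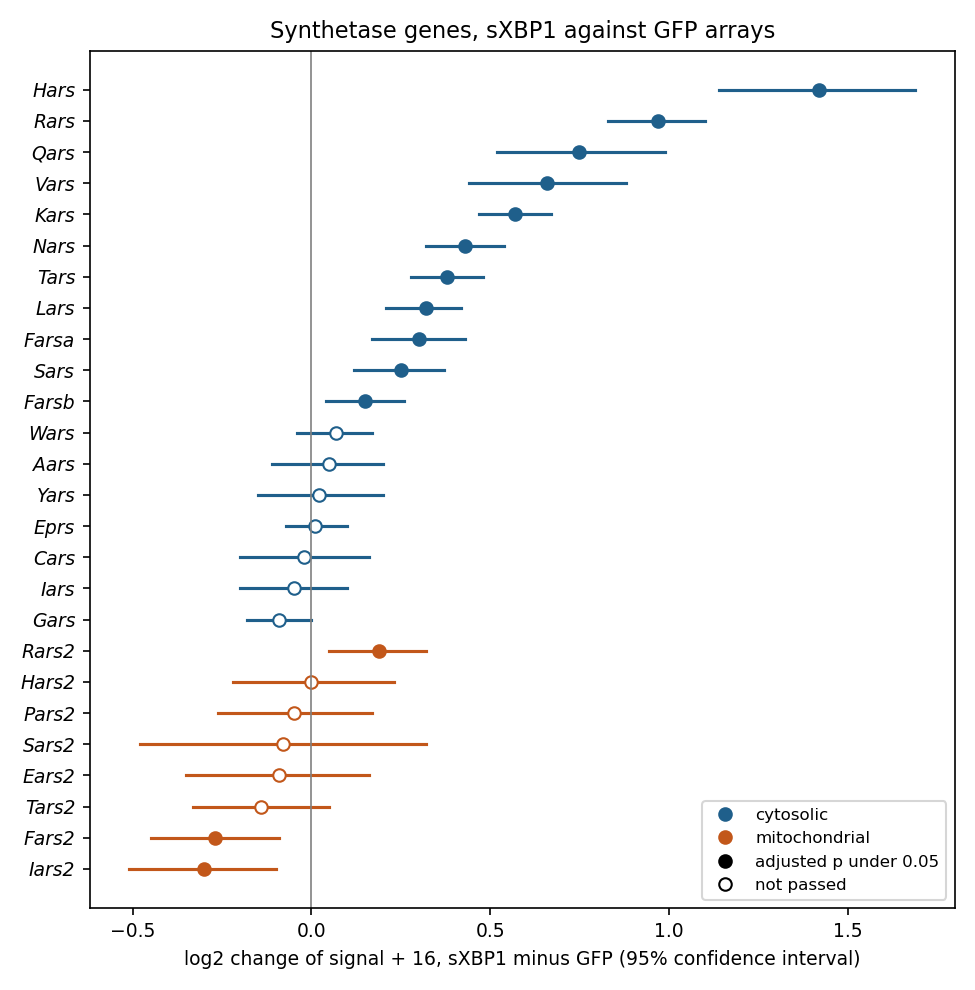
Log2 change of each synthetase gene (x axis, log2 of signal + 16, sXBP1 minus GFP, n = 4 arrays each), with 95% confidence intervals as lines; filled points passed the adjusted threshold. The 11 cytosolic genes that rose run from 0.15 for Farsb to 1.42 for Hars, and the mitochondrial genes lie between -0.30 and 0.19.

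Hars, which charges the histidine transfer RNA, changed most among the synthetases. Its signals were 1372, 1448, 1394 and 1442 on GFP arrays 1 to 4 and 3021, 3059, 4638 and 4487 on sXBP1 arrays 1 to 4. The groups did not overlap, and sXBP1 arrays 3 and 4 stood above arrays 1 and 2. In normalised values that order of arrays held for 7 of the 11 cytosolic genes that passed, Hars included, and its cause was not tested. Hars rose by 1.42 ± 0.12 (SE; 95% confidence interval 1.14 to 1.69; adjusted p = 2.6e-05), a 2.67-fold difference, and it ranked 71 among 12393 genes by log2 change. Its dimmer probe set rose by 1.61 ± 0.09.

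Rars, the arginine enzyme and a member of the multisynthetase complex, nearly doubled. Its signals were 1736, 1972, 1812 and 1767 in GFP samples and 3142, 3180, 3609 and 4076 in sXBP1 samples. Every sXBP1 array lay well above every GFP array. The log2 change was 0.97 ± 0.06 (adjusted p = 3.5e-06), the smallest p among the synthetases.

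Qars, the glutamine enzyme, also sits in the complex. Signals were 1193, 1407, 1076 and 1252 on GFP arrays and 1666, 1737, 2136 and 2647 on sXBP1 arrays. The groups were separate, with a wide spread inside the sXBP1 group. Qars rose by 0.75 ± 0.11 (adjusted p = 5.3e-04). Of its 4 probe sets, 2 shared the call: the second brightest rose by 1.06, and the others changed by 0.35 (adjusted p = 0.0533) and 0.39 (adjusted p = 0.21).

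Kars encodes the lysine enzyme and, through alternative splicing, both its cytosolic and its mitochondrial form, so its signal need not stand for the cytosolic enzyme alone. GFP arrays gave 1300, 1454, 1359 and 1442 and sXBP1 arrays 1927, 1900, 2049 and 2159. The change was 0.57 ± 0.04 (adjusted p = 1.4e-05), with no overlap and little spread in either group. Gars, the glycine enzyme, likewise serves both compartments. Its signals were 4900, 5465, 5245 and 5300 in GFP samples and 4606, 4745, 4939 and 5148 in sXBP1 samples, which overlap. The Gars change of -0.09 ± 0.04 missed the threshold (adjusted p = 0.152); without sXBP1 replicate 3 it passed at -0.12 (adjusted p = 0.0363), and after median centring it was at 0.04.

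Nars and Tars charge the asparagine and threonine transfer RNAs. Nars gave 3792, 3816, 3655 and 3764 on GFP arrays and 4620, 4819, 5078 and 5338 on sXBP1 arrays, a rise of 0.43 ± 0.05 (adjusted p = 1.9e-04) that its other probe set shared at 0.58. Tars gave 1222, 1441, 1302 and 1412 on GFP arrays and 1559, 1631, 1694 and 1940 on sXBP1 arrays, a rise of 0.38 ± 0.05 (adjusted p = 2.1e-04). Neither gene's groups overlapped, although both rises were far smaller than that of Hars.

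The remaining cytosolic genes that rose were Vars at 0.66 ± 0.10, Lars at 0.32 ± 0.05, Sars at 0.25 ± 0.06, Farsa at 0.30 ± 0.06 and Farsb at 0.15 ± 0.05. Vars, Lars and Sars charge the valine, leucine and serine transfer RNAs, and Farsa and Farsb encode the 2 subunits of the phenylalanine enzyme. Farsa signals were 450, 463, 450 and 491 on GFP arrays and 539, 516, 515 and 579 on sXBP1 arrays. Its groups were separate, and it passed at adjusted p = 0.00355. Farsb lay just inside the threshold (adjusted p = 0.0471), and 2 of its 4 probe sets shared the call. It did not pass without any 1 array other than sXBP1 replicate 1, with adjusted p from 0.0778 (without GFP replicate 2) to 0.106 (without GFP replicate 4). The Farsb call was also lost without the variance trend (adjusted p = 0.137), when its probe sets were averaged (adjusted p = 0.0594) and with the replicate block (adjusted p = 0.0719). With values as deposited, Farsb, Farsa and Sars did not pass (log2 changes 0.11, 0.21 and 0.21).

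Signals of 10 of the 18 cytosolic genes were higher on all 4 sXBP1 arrays than on all 4 GFP arrays, against 9.44% of all genes. The median deviation of the 18 genes from their GFP means was 0.24, 0.21, 0.28 and 0.29 on sXBP1 arrays 1 to 4, and -0.03 to 0.01 on GFP arrays. For the 8 mitochondrial genes it was -0.08, -0.14, -0.12 and -0.09 on sXBP1 arrays and -0.10 to 0.10 on GFP arrays, so the sets of values for the mitochondrial genes overlapped.

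**Figure D2:**
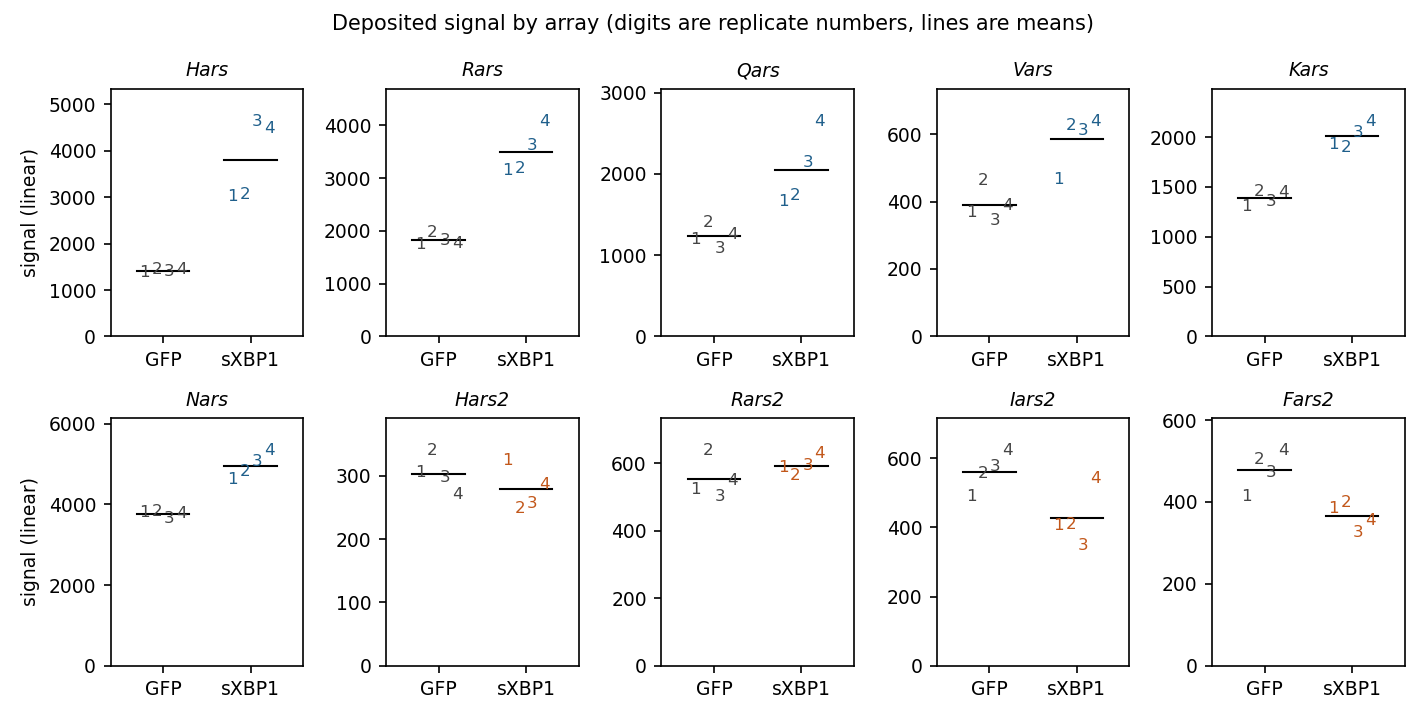
Deposited signal (y axis, linear units from 0) on each of the 8 arrays for 6 cytosolic genes in blue and 4 mitochondrial genes in orange; digits are replicate numbers and lines are group means. Hars lies between 1372 and 1448 on GFP arrays and between 3021 and 4638 on sXBP1 arrays, whereas Hars2 overlaps between the groups.

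The 7 cytosolic genes that did not pass were Aars, Cars, Eprs, Gars, Iars, Wars and Yars, with log2 changes from -0.09 to 0.07. They charge the transfer RNAs for alanine, cysteine, glutamate and proline (Eprs holds both activities), glycine, isoleucine, tryptophan and tyrosine. The 95% confidence intervals were narrow: -0.11 to 0.20 for Aars, -0.07 to 0.10 for Eprs, -0.20 to 0.10 for Iars, -0.04 to 0.17 for Wars, -0.15 to 0.20 for Yars and -0.20 to 0.16 for Cars. The upper limit for each was therefore below the change measured for Nars. Aars signals were 2948, 3551, 3481 and 3857 on GFP arrays and 3492, 3015, 3482 and 3952 on sXBP1 arrays, which interleave. None of the 4 Wars probe sets, of the 3 of Eprs or of the 2 each of Aars, Cars and Iars passed.

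Genes that rose were found both inside and outside the multisynthetase complex and in both structural classes. Over all genes 12.9% were higher, and differences between the subsets were not tested. Of the 6 measured members of the multisynthetase complex, Rars, Qars, Kars and Lars rose and Eprs and Iars did not pass (median 0.44). Outside the complex 7 of 12 rose (median 0.20). Of the 8 genes of class I enzymes 4 rose (median 0.19), and of the 9 genes of class II enzymes 7 rose (median 0.30). The class II count takes Farsa and Farsb, subunits of the same enzyme, as separate genes. Eprs carries a domain of each class and is in neither count.

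Promoter letters were compared because many cytosolic synthetase genes are known targets of ATF4. RefSeq promoter windows on GRCm38.p6, 250 bases before to 50 after the gene start, were used for 17 of the 26 genes. Those without a window were Cars, Hars, Lars, Nars, Rars, Vars, Wars, Hars2 and Pars2. The ATF4 and C/EBP element was searched as TGATGNAA on both strands (TTNCATCA on the opposite strand), and 3.97% of all 32851 windows held it. Among the synthetases it was found in 5 windows, all of cytosolic genes: Aars, Gars, Iars, Tars and Yars. A match from each of these genes is given in 30 bases, 5' to 3' on the strand of the gene, because these are the genes in which the element and the measured change can be set side by side; capitals mark the match.
Aars, chr8:111033840-111033869, plus strand: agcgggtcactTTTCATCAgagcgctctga
Gars, chr6:55037960-55037989, plus strand: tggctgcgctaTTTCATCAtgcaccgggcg
Iars, chr13:49682126-49682155, plus strand: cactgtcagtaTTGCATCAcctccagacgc
Tars, chr15:11399655-11399684, minus strand: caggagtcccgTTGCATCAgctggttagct
Yars, chr4:129189895-129189924, plus strand: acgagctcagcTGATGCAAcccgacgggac
Counting the first transcribed base as 1, these matches began at 10 in Aars, -30 in Gars, 8 in Iars, -15 in Tars and 4 in Yars. Aars held a further match, not printed, that began at -112. Of these 5 genes Tars rose, by 0.38, and the other 4 did not pass, at -0.09 to 0.05. Of the 6 cytosolic genes whose windows had no such match, Farsa, Farsb, Kars, Qars and Sars rose and Eprs did not pass. Of the 9 genes without a window 5 rose, among them Hars and Rars, so the 2 largest rises are outside this comparison. A match is a string of letters and not a shown binding site. Whether ATF4 had a part in the changes was not tested.

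Letters known for XBP1 binding were searched in the same windows. The core TGACGTG, shared by XBP1 and ATF6, was held by 2.01% of all windows and by 1 synthetase window, that of Eprs, 9 bases before the start, with the match again in capitals.
Eprs, chr1:185363024-185363053, plus strand: gcgcatatttaTGACGTGtcgtagcgtgcg
Eprs changed by 0.01 ± 0.04. The ER stress element, searched as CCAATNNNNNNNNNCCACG on both strands, was in 0 of the 17 windows and in 0.119% of all windows. The E-box CACGTG, which shares the letters ACGTG with the XBP1 core, was in 5 of the 17 windows (Aars, Farsb, Iars, Tars and Ears2) and in 7.15% of all. The 250 bases before the start of Qars, which rose most among genes with a window, and of Fars2 and Iars2, the 2 that fell, held none of these 4 motifs and so carry no capitals.
Qars, chr9:108507755-108508004, plus strand: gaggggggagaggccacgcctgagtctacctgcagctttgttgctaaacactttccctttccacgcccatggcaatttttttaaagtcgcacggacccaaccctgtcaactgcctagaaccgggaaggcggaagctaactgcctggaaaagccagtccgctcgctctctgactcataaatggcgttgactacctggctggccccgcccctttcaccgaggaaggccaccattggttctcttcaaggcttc
Fars2, chr13:36117393-36117642, plus strand: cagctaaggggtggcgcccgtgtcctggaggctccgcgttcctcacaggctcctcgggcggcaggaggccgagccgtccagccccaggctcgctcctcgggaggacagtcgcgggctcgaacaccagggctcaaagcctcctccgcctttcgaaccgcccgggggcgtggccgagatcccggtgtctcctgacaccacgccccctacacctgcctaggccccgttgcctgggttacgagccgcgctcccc
Iars2, chr1:185329402-185329651, minus strand: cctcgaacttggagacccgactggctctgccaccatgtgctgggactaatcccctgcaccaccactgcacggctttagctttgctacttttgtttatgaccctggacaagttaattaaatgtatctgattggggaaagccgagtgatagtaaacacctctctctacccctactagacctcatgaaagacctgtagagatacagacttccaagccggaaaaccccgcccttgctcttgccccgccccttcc
GC content of these stretches was 56.0% for Qars, 71.6% for Fars2 and 51.6% for Iars2.

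Mitochondrial synthetases changed little, and the 3 that passed lay close to the threshold. Iars2, the mitochondrial isoleucine enzyme, gave 490, 556, 577 and 622 on GFP arrays and 404, 410, 347 and 542 on sXBP1 arrays. Array 4 of the sXBP1 group overlapped the GFP values, and the fall was 0.30 on the log2 scale (SE 0.09; adjusted p = 0.0364). Iars2 did not pass without GFP replicate 3 or 4 or without sXBP1 replicate 1, 2 or 3 (adjusted p = 0.101, 0.104, 0.0734, 0.0756 and 0.0896), nor after median centring (-0.25, adjusted p = 0.0718) or without the variance trend (adjusted p = 0.0695).

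Fars2, the mitochondrial phenylalanine enzyme, gave 412, 504, 472 and 526 on GFP arrays and 385, 398, 324 and 354 on sXBP1 arrays. These signals did not overlap; among all genes 17.8% lay below in this way. Fars2 fell by 0.27 (SE 0.08; adjusted p = 0.037), and its other probe set changed by -0.30 without passing (adjusted p = 0.176). The call was lost after median centring (-0.23, adjusted p = 0.0628), without the variance trend (adjusted p = 0.0633), with the replicate block (adjusted p = 0.0859), without GFP replicate 2, 3 or 4 (adjusted p = 0.0735, 0.0942 and 0.107) and without sXBP1 replicate 3 or 4 (adjusted p = 0.0842 and 0.0873).

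Rars2, the mitochondrial arginine enzyme, gave 523, 638, 501 and 550 on GFP arrays and 587, 564, 595 and 629 on sXBP1 arrays. Deposited signals overlapped, whereas normalised values did not. The rise was 0.19 ± 0.06 (adjusted p = 0.0455) and still passed without GFP replicate 2, but was lost when any other array was left out (adjusted p from 0.0523 to 0.123); it was also lost without the variance trend (adjusted p = 0.0849), with the replicate block (adjusted p = 0.0967) and with values as deposited (0.10, adjusted p = 0.471). Tars2, the threonine enzyme, gave 412, 508, 486 and 570 on GFP arrays and 453, 384, 365 and 466 on sXBP1 arrays and changed by -0.14 ± 0.09 (adjusted p = 0.306). Hars2, Pars2, Sars2 and Ears2, for histidine, proline, serine and glutamate, changed by 0.00, -0.05, -0.08 and -0.09, and their confidence intervals reached as far as -0.48 and 0.32 for Sars2.

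For amino acids with both enzymes measured, the change of the cytosolic gene was set against that of its mitochondrial partner on the same arrays. Some pairs share a gene, since Fars2 was set against both Farsa and Farsb, and Eprs against both Ears2 and Pars2. The cytosolic gene had the more positive change in all 9 pairs, which are therefore not independent. In 5 of them the per-array differences of the groups did not overlap, which gave the smallest p that 4 against 4 arrays allow (two-sided exact permutation p = 0.0286). Adjusted over the 9 pairs these were 0.0514, so 0 pairs passed. When each gene was instead averaged over its probe sets, 6 pairs passed. Pairs at the smallest p share their adjusted value and pass or miss together, so this step from 0 to 6 need not be a large shift. The averages also include dim probe sets, such as a Farsb probe set called present on no array.

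Hars and Hars2 differed most, by 1.41 in log2 change (SD of the per-array difference 0.12 in GFP and 0.37 in sXBP1 samples, n = 4 each). Hars2 signals were 306, 340, 296 and 271 on GFP arrays and 325, 248, 256 and 286 on sXBP1 arrays, which interleave. The annotated spans of these genes touch on chromosome 18, so a gene that rose and one at 0.00 are immediate neighbours. Rars and Rars2 differed by 0.78, Farsa and Fars2 by 0.57, Tars and Tars2 by 0.51 and Farsb and Fars2 by 0.42. The other pairs were Sars and Sars2 at 0.32 (exact permutation p = 0.171), Iars and Iars2 at 0.26 (p = 0.0571), Eprs and Ears2 at 0.11 (p = 0.371) and Eprs and Pars2 at 0.06 (p = 0.457).

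**Figure D3:**
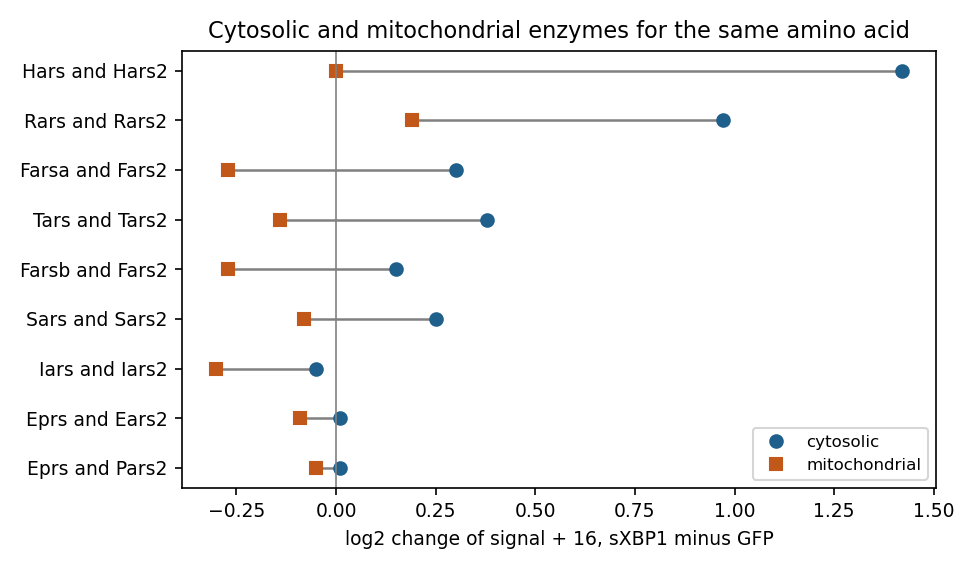
Log2 change (x axis, log2 of signal + 16, sXBP1 minus GFP) of the cytosolic gene, a circle, and of its mitochondrial partner, a square, for 9 pairs. The circle lies to the right of the square in every pair, from a gap of 0.06 for Eprs and Pars2 to 1.41 for Hars and Hars2.

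Of the 48 probe sets 19 passed the threshold, and over all probe sets 24.5% did. With the filter on present calls 19 synthetase probe sets passed, and 43.7% of all probe sets kept by that filter did. The count of 19 is therefore no excess over probe sets called present. More than 1 probe set was measured for 14 genes. All probe sets of Hars, Nars and Sars passed, calls were split for Qars, Farsb and Fars2, and no probe set of the other 8 genes passed. The signs were mixed among the probe sets of Aars, Eprs, Iars and Wars, and of Hars2, where the brightest was barely above 0.00 and the other at -0.06. One dim Farsb probe set changed by 0.62 ± 0.18 but was called present on no array of either group. Of the 3 Farsb probe sets that were present, only the brightest passed. In the authors' deposited table the signed ratio of group means was 2.69 for Hars, 1.92 for Rars, 1.66 for Qars and 1.45 for Kars. The authors' deposited table gave 23 of the 26 genes the direction of the fit; the exceptions were Eprs, Hars2 and Yars, all near 0.

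**Figure D4:**
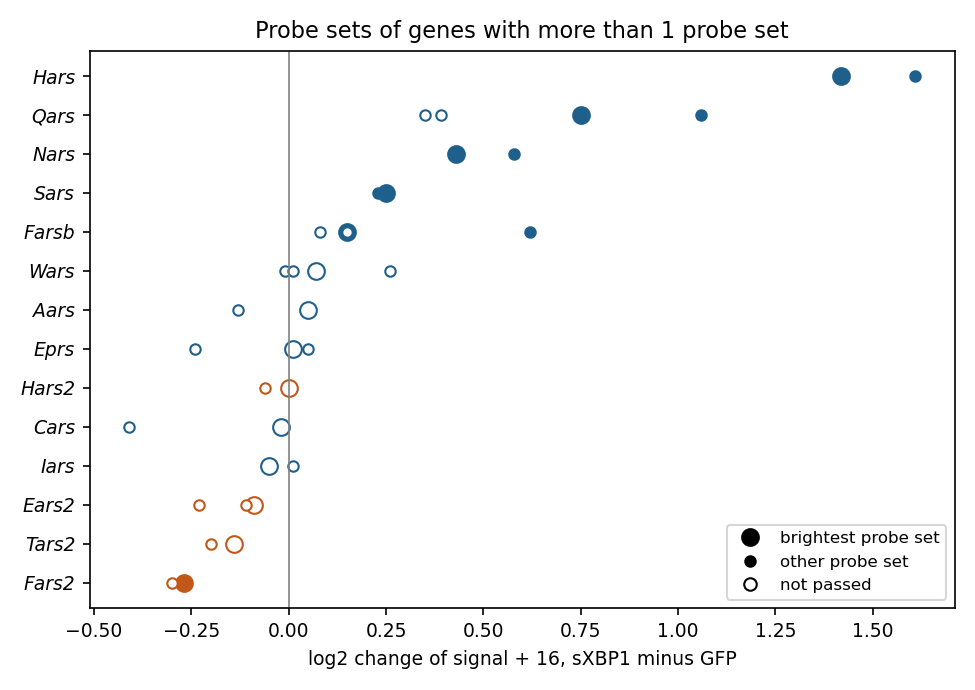
Log2 change (x axis, log2 of signal + 16, sXBP1 minus GFP) of each probe set for the 14 genes with more than 1; the larger point is the brightest probe set and open points did not pass. Both Hars probe sets exceed 1.4, while those of Qars spread from 0.35 to 1.06.

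Of 11 scaffold and synthetase-related genes 2 rose and 1 fell (median 0.03), a share near the 27.3% called over all genes. Aimp2, a scaffold of the multisynthetase complex, rose by 0.72 ± 0.08 (adjusted p = 9.6e-05; mean signal 745 ± 80.3 in GFP and 1184 ± 202 in sXBP1 samples, SD, n = 4 each), and Aimp1, its other scaffold, rose by 0.31 ± 0.09. Eef1e1, the third scaffold, changed by 0.07 ± 0.08 (adjusted p = 0.611). Gatc, a subunit of the mitochondrial enzyme that converts misacylated glutamyl-tRNA to glutaminyl-tRNA, fell by 0.37 (SE 0.07; adjusted p = 0.00338).

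Of 11 genes for transcription and processing of transfer RNA, 4 rose and 1 fell (median 0.11), against 12.9% of all genes higher and 14.4% lower. Polr3k and Polr3a, subunits of RNA polymerase III, rose by 0.58 ± 0.06 and 0.62 ± 0.09 (adjusted p = 9.6e-05 and 6.7e-04). Maf1, the repressor of that polymerase, rose too, by 0.23 ± 0.06, and Tsen34, a subunit of the tRNA splicing endonuclease, fell by 0.43 (SE 0.06; adjusted p = 7.5e-04).

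Of 10 cytosolic initiation factors 4 rose and 0 fell (median 0.12), against 12.9% of all genes higher and 14.4% lower. Eif2b4, a subunit of the exchange factor for eIF2, led at 0.96 ± 0.11, with Eif4e, the cap-binding protein, at 0.31 ± 0.06. The call was on 2 of 3 probe sets for Eif4e, 1 of 6 for Eif2s2 and 1 of 3 for Eif4a1. Eif2b2 did not pass, a result held by 1 of its 3 probe sets. Of 9 genes listed as elongation and termination factors 1 rose, the ribosome recycling factor Abce1 at 0.53 ± 0.07. Etf1, the release factor, was at 0.19 ± 0.06 (adjusted p = 0.0582), and 3 of its 5 probe sets did not pass. For Gspt1, which did not pass either, 1 of 3 did not, so the count depends on the probe set used. Of 5 mitochondrial translation factors 1 fell, the elongation factor Gfm1 at -0.34 ± 0.06 on 1 of 2 probe sets, and Gfm2 was at -0.05 ± 0.05 (adjusted p = 0.538). The counts for these last 2 lists are near the shares called over all genes.

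Known targets of ATF4 and of XBP1 were set beside the synthetases. Of 18 genes listed as ATF4 targets, a list that includes Atf4, 6 rose and 3 fell (median -0.05). Over all genes 12.9% were higher and 14.4% lower. Atf4 itself rose by 0.31, with the call on 1 of its 3 probe sets. The others that rose were the amino acid transporter genes Slc7a5 at 0.52 and Slc3a2 at 0.37, Nupr1 at 0.53 and Chac1 at 0.38. Psat1 of serine synthesis also rose, by 0.24, on 1 of 2 probe sets. Mthfd2 fell by 0.16, on 1 of 2 probe sets. Phgdh of serine synthesis fell by 0.80 and the lipoprotein receptor gene Vldlr by 0.70, on 4 of 4 and 3 of 4 probe sets. Asns, asparagine synthetase, a textbook ATF4 target, changed by -0.06 ± 0.06 (adjusted p = 0.555). Of 10 XBP1 targets of the ER all 10 rose (median 0.87), with Dnajc3 at 1.53 and Sdf2l1 at 2.39. Hars, at 1.42, lay within the range of that list, and the median of the cytosolic synthetases lay below its median.

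**Figure D5:**
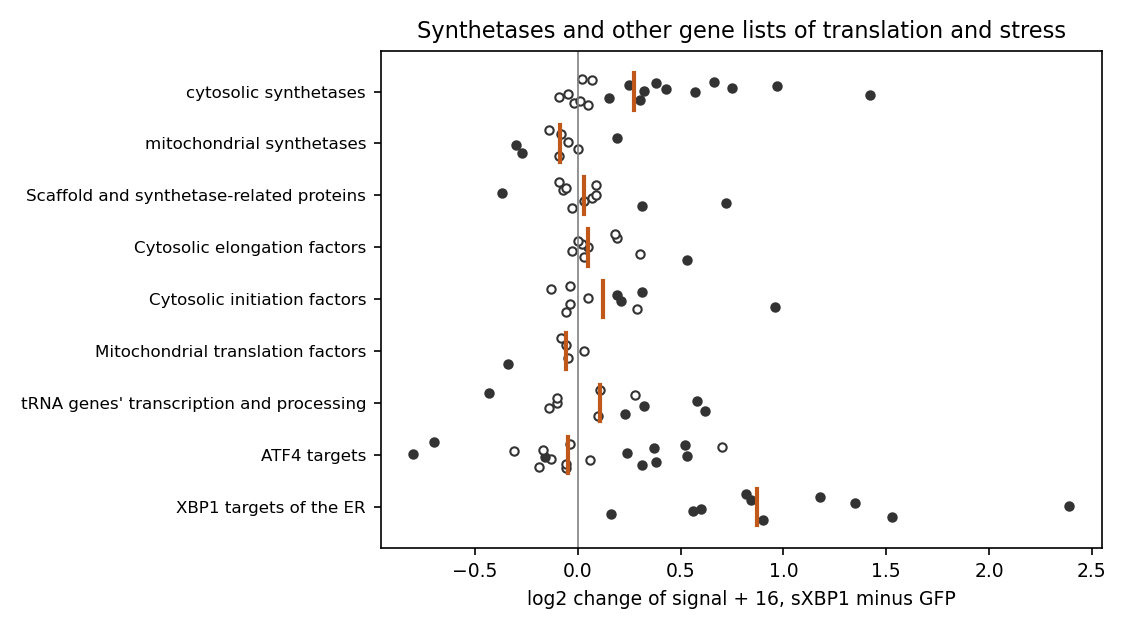
Log2 change (x axis, log2 of signal + 16, sXBP1 minus GFP) of each measured gene in 9 lists; filled points passed the threshold and orange lines are medians. The cytosolic synthetases have a median near 0.27, the mitochondrial ones near -0.08, the ATF4 targets -0.05 and the XBP1 targets 0.87.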

How the data were processed

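Biotin-labelled material from total RNA of 8 samples was measured on Affymetrix arrays, 1 per sample. The deposited values are linear signal intensity per probe set. The submitters' processing notes name MAS5, and its scaling target is not given in the sources used. A second deposited table holds the same signals with present or absent calls, a signed fold (negative where GFP is higher) and a score, of which the fold is printed. Of the value table, 64 control probe sets were left out and 22626 were tested. Gene symbols came from the platform annotation; 20380 tested probe sets had a single symbol.

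Signals were taken as log2(signal + 16) and quantile normalised, since means after trimming 2% at each end ran from 492 to 574 between arrays. The pseudocount of 16 shrinks changes of dim genes. The test was limma 3.58.1 (R 4.3.3; lmFit, then eBayes allowing a mean-variance trend). Two-sided p-values were adjusted by Benjamini-Hochberg over every tested probe set, with a threshold of 0.05. The fit was tested on simulated data. Pairs were compared by exact permutation with scipy 1.17.1, and figures drawn with matplotlib 3.10.9. Arrays carry no read depth; precision is limited by 4 arrays per group. Since separate cultures are not stated, the p-values reflect only spread among these arrays, possibly technical.

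Members, lists and tests were chosen with earlier results of these data known. Values on every array are given for the 6 cytosolic and 4 mitochondrial genes of smallest p, both partners of the 3 widest pairs, and Gars and Kars; from each other list the 2 genes of smallest p are named. Of other genes named, Aars was given array by array, and Aimp1, Eef1e1, Maf1, Tsen34, Asns and the further ATF4 targets were chosen, after their values were seen. Promoters were to be shown for the 3 largest rises and falls; those of Hars and Rars were not used here. One promoter sequence is not reported here. Alternatives were the scaling, pseudocount, variance trend, a filter on present calls, the mean of all probe sets, the replicate block and leaving out each array.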

Additional observations from a re-analysis of the deposited data

Results flagged for a closer look

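Among 52 groups of 4 arrays (26 genes in 2 groups), 4 held 1 array set apart from the other 3, with a gap to the nearest above Dixon's 95% critical share of the group's range; chance flags about 5% of such groups. Normalised log2 values were 11.60 for Aars on sXBP1 array 2 against 11.84 to 11.85 on the other 3, and 10.10 for Wars on the same array against 10.20 to 10.21. Farsb was at 10.52 on sXBP1 array 1 against 10.66 to 10.68, and Kars at 10.40 on GFP array 2 against 10.44 to 10.45.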

How the results depend on the processing

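The calls of Hars, Rars, Qars, Vars, Kars, Nars, Tars and Lars held in all 16 alternatives, and Hars ranged from 1.30 to 1.53. Cytosolic genes called higher numbered 8 with values as deposited, 10 without a trend, 10 with the mean of all probe sets, 10 to 11 when 1 array was left out and 11 in the other settings apart from the replicate block. With the replicate block, cytosolic genes called higher were 10 and mitochondrial genes called higher and lower were 0 and 1. Same-numbered arrays correlated at 0.113, 0.018, -0.076 and 0.099 in their deviations from the group means, and differently numbered ones at -0.14 to 0.077. Not every array correlated best with its own number. Correlations this weak cannot settle whether the numbers pair the samples. The cytosolic median was 0.21 as deposited and 0.35 after median centring, where the median of all probe sets was -0.07 and 0.07. The mitochondrial median was -0.23 as deposited. Mitochondrial genes called higher were 0 as deposited and without a trend, and 0 to 1 when 1 array was left out. Mitochondrial genes called lower were 0 after median centring and without a trend, and 0 to 2 when 1 array was left out. Cytosolic genes called lower were 0 to 1 when 1 array was left out, the 1 being Gars without sXBP1 replicate 3. Pairs that passed were 6 with the mean of all probe sets. The causes of these shifts were not tested. Pairs could not pass when 1 array was left out, where the smallest exact p is 0.0571, or as blocked differences, where it is 0.125; the trend and the filter do not enter that test. With the present filter 43.7% of probe sets passed, against 24.5%, since fewer dim ones were tested.

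Direction changed for genes that did not pass: Cars to 0.03 and Gars to 0.04 and Iars to 0.06 after median centring; Eprs to -0.03, Hars2 to -0.12 and Yars to -0.04 as deposited; and Aars to -0.04, Eprs to -0.06 and Hars2 to -0.03 with the mean of all probe sets. With 1 array left out, changes ranged from -0.08 to 0.04 for Cars, -0.07 to 0.05 for Hars2, -0.16 to 0.11 for Sars2 and -0.02 to 0.10 for Yars.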
